A study of Mus musculus with 20 samples.

Results

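Transport of ions and water across the gut epithelium was described through 10 genes: Slc9a3, Slc9a2, Scnn1a, Scnn1b, Scnn1g, Slc26a3, Car4, Atp12a, Aqp8 and Guca2a. They were found among 21154 genes on the array by the RefSeq accession of the probe, and the brightest probe stood for a gene with several. All 10 were found. RNA of colon, ileum, mesenteric fat, brown fat and liver was hybridised to 20 one-colour microarrays, 1 for each tissue and diet. The mice were male C57BL/6J animals that entered the study at 5 weeks of age and spent 13 weeks on a diet, and each array held RNA pooled from 7 of them. Of the 4 diets, 3 drew 60% of their energy from fat. HFD+Ex was that high fat diet with 2% by weight of nori extract, HFD+PP was the same diet with 2% by weight of porphyran, a sulfated polysaccharide that red algae such as nori make, and HFD was the diet alone. The control diet CD drew 10% of its energy from fat. With 1 array per group, differences between diets had no replicate check and no test. Tissues of 1 diet were taken from the same animals and do not replicate it.

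The colon takes up sodium, chloride and water from what the small intestine passes on. Sodium enters the surface cells through sodium/proton exchangers, which work in parallel with a chloride/bicarbonate exchanger, or through the epithelial sodium channel ENaC, which aldosterone induces mainly in the distal colon. Slc9a3 and Slc9a2 encode the exchangers NHE3 and NHE2, and Slc26a3 encodes the chloride/bicarbonate exchanger whose loss causes congenital chloride diarrhoea. Scnn1a, Scnn1b and Scnn1g encode the α, β and γ subunits of ENaC. Car4 is a carbonic anhydrase on the outer face of the apical membrane, Atp12a the catalytic subunit of a proton/potassium pump that takes up potassium, and Aqp8 a water channel known from colon surface cells and hepatocytes. Guca2a encodes guanylin, a peptide that activates guanylate cyclase C and through cyclic GMP drives chloride and bicarbonate secretion and restrains NHE3.

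The genes lie on separate chromosomes apart from Scnn1g, Scnn1b and Aqp8. In GRCm38.p6 Scnn1g is at chr7:121734420-121768482, Scnn1b at chr7:121865038-121918728 and Aqp8 at chr7:123462294-123468003. Slc9a3 is at chr13:74086255-74169442, Slc9a2 at chr1:40681712-40768885, Scnn1a at chr6:125314271-125344943 and Slc26a3 at chr12:31433142-31473922. Car4 is at chr11:84957754-84966054, Atp12a at chr14:56364669-56388551 and Guca2a at chr4:119637732-119639465.

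RefSeq promoters, running from 250 bases before to 50 bases after a listed gene start, were held for 7 of the 10 genes. Those of Slc9a3, Scnn1b and Scnn1g are shown because these genes differed most between diets in the colon. All 3 lie on the plus strand of GRCm38.p6, at chr13:74121163-74121462, chr7:121864788-121865087 and chr7:121734229-121734528 in that order, and the capitals mark a motif match. The windows of Slc9a3 and of Slc26a3, at chr12:31437969-31438268, lie inside the gene spans given above and not at their first base. The Scnn1g window covers the first base of its gene span, but the listed start lies further inside the span. Whether the Slc9a3 window serves the transcript that the probe reads was not tested.
Slc9a3: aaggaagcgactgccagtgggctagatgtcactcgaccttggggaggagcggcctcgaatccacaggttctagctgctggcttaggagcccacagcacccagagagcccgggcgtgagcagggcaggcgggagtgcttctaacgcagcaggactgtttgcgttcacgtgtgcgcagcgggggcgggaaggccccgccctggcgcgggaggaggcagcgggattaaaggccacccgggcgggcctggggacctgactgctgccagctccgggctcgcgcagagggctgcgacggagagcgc
Scnn1b: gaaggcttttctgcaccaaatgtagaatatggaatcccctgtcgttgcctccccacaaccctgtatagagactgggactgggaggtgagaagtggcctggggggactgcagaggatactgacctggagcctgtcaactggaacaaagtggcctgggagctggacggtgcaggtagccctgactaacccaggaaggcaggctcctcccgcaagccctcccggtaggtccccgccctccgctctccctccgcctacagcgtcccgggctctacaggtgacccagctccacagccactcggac
Scnn1g: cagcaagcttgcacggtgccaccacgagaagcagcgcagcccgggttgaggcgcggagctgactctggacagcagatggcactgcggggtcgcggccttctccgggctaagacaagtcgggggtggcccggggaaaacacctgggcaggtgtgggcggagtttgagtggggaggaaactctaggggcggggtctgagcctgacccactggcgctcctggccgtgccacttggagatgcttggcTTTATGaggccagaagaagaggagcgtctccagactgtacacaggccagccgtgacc
The promoters were searched for 4 motifs on both strands. CATAAA, or TTTATG on the other strand, is a core bound by CDX factors and was present in 11.9% of 32851 promoters, and CAATAAA, or TTTATTG, bound by posterior HOX factors, was in 4.6%. AGAACA, or TGTTCT, a core of the sites of the glucocorticoid and mineralocorticoid receptors, was in 19%, and the TATA box TATAAA, or TTTATA, was in 13.6%. CATAAA and TATAAA share every letter but the first. The Scnn1g promoter held TTTATG at position -7 from the listed start, which is inside the gene span given above and not upstream of it. The windows of Slc9a3 and Scnn1b held none of the motifs. Elsewhere, Aqp8 had TTTATTG at -6, Guca2a TGTTCT at -7, Slc26a3 AGAACA at 41 and TATAAA at -30, and Car4 TATAAA at 42. The 3 promoters shown were rich in G and C, at 68.7% for Slc9a3, 61.7% for Scnn1b and 64.7% for Scnn1g, where the median of all promoters was 52.7%.

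Levels are given as the log2 processed signal minus the 75th percentile of the array, so that 0 is the brightness at that percentile. Levels of different genes come from different probes and were not compared. A summed linear level of a list of markers follows its brightest probes and does not measure the content of a cell type. Between 64.4% and 67.9% of spots were well above background on the colon arrays and between 57.3% and 64.6% on the ileum arrays, and no spot was saturated. Spots of 1 probe printed 10 times differed within an array by an SD of 0.0507 to 0.0674 log2, which covers the reading of an array and no difference between animals or pools. The labelled tissues held their markers: Hoxb13, Hoxd13, Hoxd12, Hoxd11 and Hoxd10, which mark the posterior body, were well above background on all 4 colon arrays and on none of the 4 ileum arrays. All 12 small intestine markers were well above background on the 4 ileum arrays, and all 12 were lower in colon than in ileum. Many liver transcripts were higher on the CD arrays than on the HFD arrays of both gut parts. In HFD against CD, 7 of 8 liver markers were at least 2-fold lower in the colon and 5 of 8 in the ileum. In both, 0 were higher by as much. Alb, which encodes albumin, had levels of -2.12, -2.12, -1.76 and 2.78 in the colon with HFD+Ex, HFD+PP, HFD and CD. The 8 liver markers had summed linear levels of 20.6, 16.7, 19.6 and 61.6 on these colon arrays.

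Across the tissues, the sodium exchangers, the chloride/bicarbonate exchanger and guanylin were genes of both gut parts, while the β and γ subunits of ENaC were well above background on every colon array and on 1 array elsewhere, Scnn1b in brown fat with HFD (-4.17). Scnn1b averaged -0.22 ± 0.63 in colon (SD, n = 4 arrays of different diets), and Scnn1g averaged -2.05 ± 1.07. Both were not well above background on any ileum, mesenteric fat or liver array. Slc9a3 averaged 2.26 ± 2.43 in colon, 2.05 ± 0.44 in ileum and -4.28 ± 1.76 in mesenteric fat, and Slc9a2 averaged 2.82 ± 0.10, 2.54 ± 0.38 and -4.05 ± 0.73 in these tissues. For both exchangers the ranges of colon and ileum overlapped and that of mesenteric fat lay below them. These Slc9a3 values come from its brighter probe. Its other probe, for another RefSeq transcript, averaged -5.32 ± 2.39 in colon and -4.92 ± 0.29 in ileum. It was well above background on 2 colon arrays, 1 ileum array and 0 mesenteric fat arrays. Slc26a3 averaged 5.54 ± 0.23 in colon and 2.33 ± 0.15 in ileum, and its ranges in the 2 gut parts did not overlap. Guca2a averaged 6.80 ± 0.64 in colon and 7.74 ± 0.24 in ileum, and those ranges did overlap.

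Scnn1a, Car4, Aqp8 and Atp12a were also read in tissues outside the gut. Scnn1a averaged 4.32 ± 0.05 in colon, 2.56 ± 0.15 in liver, 1.06 ± 0.13 in ileum, -1.61 ± 0.13 in brown fat and -1.66 ± 0.28 in mesenteric fat. The ranges of the 2 fat tissues overlapped, and those of all other neighbours in this order did not. Aqp8 averaged 7.52 ± 0.12 in colon and 7.32 ± 0.45 in liver, with overlapping ranges, and the next tissue, brown fat, averaged -3.76 ± 0.67. Atp12a averaged 4.37 ± 0.07 in colon and -2.35 ± 0.28 in liver, and it was well above background on 1 array of the other 3 tissues together. Car4 averaged 6.59 ± 0.11 in colon, 4.85 ± 0.41 in ileum, 4.74 ± 0.13 in brown fat, 3.92 ± 0.09 in liver and 3.48 ± 0.12 in mesenteric fat, and the ranges of ileum and brown fat overlapped. Its other probe was not well above background on any liver array. That probe averaged 3.36 ± 0.56 in ileum, 1.77 ± 0.18 in brown fat and 0.71 ± 0.65 in mesenteric fat. With it the ranges of ileum and brown fat did not overlap. The 2 probes of Car4 thus disagree on the liver and on the overlap of ileum and brown fat.

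**Figure D1:**
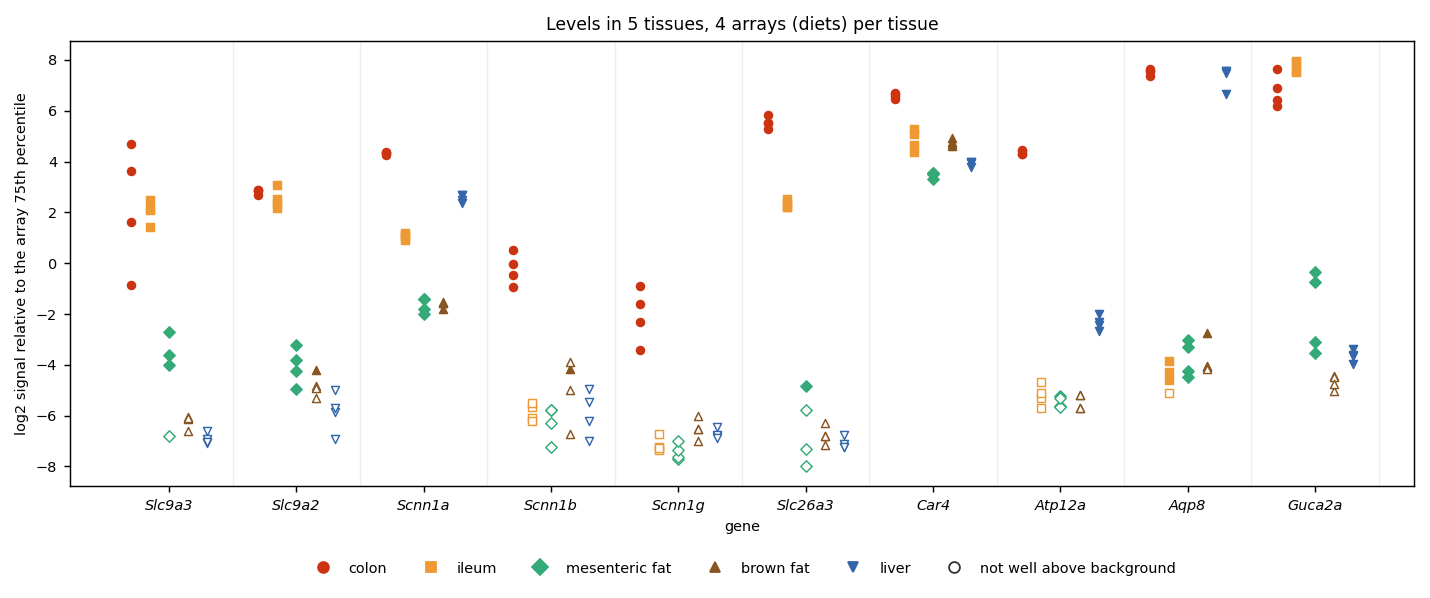
Level of each gene (log2 signal relative to the 75th percentile of the array) in 5 tissues, with 1 point per array and 4 arrays of different diets per tissue. Open points were not well above background. Scnn1b and Scnn1g are filled on all colon arrays and open in ileum, and Aqp8 lies near 7.5 in colon and liver.

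The comparison of colon with ileum asks how the transport genes differ between the 2 gut parts, over the 4 diets. Aqp8, Atp12a, all 3 ENaC subunits, Slc26a3 and Car4 were higher in the colon, and Slc9a3, Slc9a2 and Guca2a did not pass the test. A gene was called when it differed by at least 1 log2 at an adjusted p under 0.05 in limma with diet as a block. This called 7 of the 10 genes higher and 0 lower, where 8.19% of the 16389 genes tested were called higher and 7.60% lower. The genes were named for transport in the colon, and Atp12a, Scnn1b and Scnn1g passed the filter on dim probes only through the colon arrays, so their count is no support for a direction. All colon arrays were on 1 slide and all ileum arrays on another, so slide and gut part cannot be told apart.

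Aqp8 had levels of 7.55, 7.63, 7.35 and 7.55 in the colon and -5.10, -4.28, -4.61 and -3.86 in the ileum with HFD+Ex, HFD+PP, HFD and CD, and the ileum value with HFD+Ex was not well above background. Colon exceeded ileum by 11.99 log2 (SE 0.205, limma adjusted p = 1.16e-05), in 4 of 4 diets. The other probe of Aqp8 averaged 3.88 ± 0.15 in colon and was not well above background on any ileum array. Atp12a had 4.45, 4.32, 4.32 and 4.42 in the colon on the same diets, and it was not well above background on any ileum array. Its colon level was at least 703-fold higher (limma adjusted p = 1.37e-05). This sets the colon mean against the higher of its own signal and the lowest signal well above background on each ileum array. Over the diets the colon values of Aqp8 spanned 0.28 log2 and those of Atp12a 0.13, so both genes were high in the colon on every diet.

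The ENaC subunits differed from each other in the ileum. Scnn1a was measured there, with 4.37, 4.33, 4.34 and 4.25 in the colon and 1.13, 0.90, 1.19 and 1.02 in the ileum with HFD+Ex, HFD+PP, HFD and CD, a difference of 3.27 log2 (SE 0.0714, limma adjusted p = 1.97e-05). Scnn1b was at least 30.4-fold higher in the colon (limma adjusted p = 0.000265), and Scnn1g at least 8.57-fold (limma adjusted p = 0.00125). For Atp12a, Scnn1b and Scnn1g the p sets colon signals against readings at background, and they entered the test through the colon arrays, so it adds nothing to the limit itself. With normexp background correction, which raises dim signals by an offset of 50, the differences were 2.62 log2 for Scnn1b, 1.23 for Scnn1g, 6.78 for Atp12a and 9.88 for Aqp8, all still called.

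Slc26a3 had 5.51, 5.53, 5.28 and 5.84 in the colon and 2.35, 2.22, 2.53 and 2.20 in the ileum with HFD+Ex, HFD+PP, HFD and CD. The difference was 3.22 log2 (SE 0.154, limma adjusted p = 0.000147). Car4 had 6.57, 6.70, 6.45 and 6.64 in the colon and 4.38, 5.10, 4.65 and 5.26 in the ileum, a difference of 1.74 log2 (SE 0.144, limma adjusted p = 0.000706) that was 2.59 log2 with its other probe. For both genes every colon array lay above every ileum array.

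The sodium exchangers did not separate the gut parts. Slc9a2 had 2.86, 2.86, 2.67 and 2.89 in the colon and 2.53, 2.36, 3.06 and 2.19 in the ileum (difference 0.28 log2, SE 0.192, limma adjusted p = 0.258). Slc9a3 differed by 0.22 log2 (SE 0.882, limma adjusted p = 0.846), with colon minus ileum at 0.17, 2.18, -2.95 and 1.47 for HFD+Ex, HFD+PP, HFD and CD. The HFD pair alone was negative, and without it the difference was 1.27 log2 (limma adjusted p = 0.0802). Guca2a had a difference of -0.94 log2 (SE 0.332, limma adjusted p = 0.0622), with pairs of -1.48, 0.11, -1.75 and -0.63. Without the HFD+PP pair it was -1.29 log2 (limma adjusted p = 0.0181), which passes the test.

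**Figure D2:**
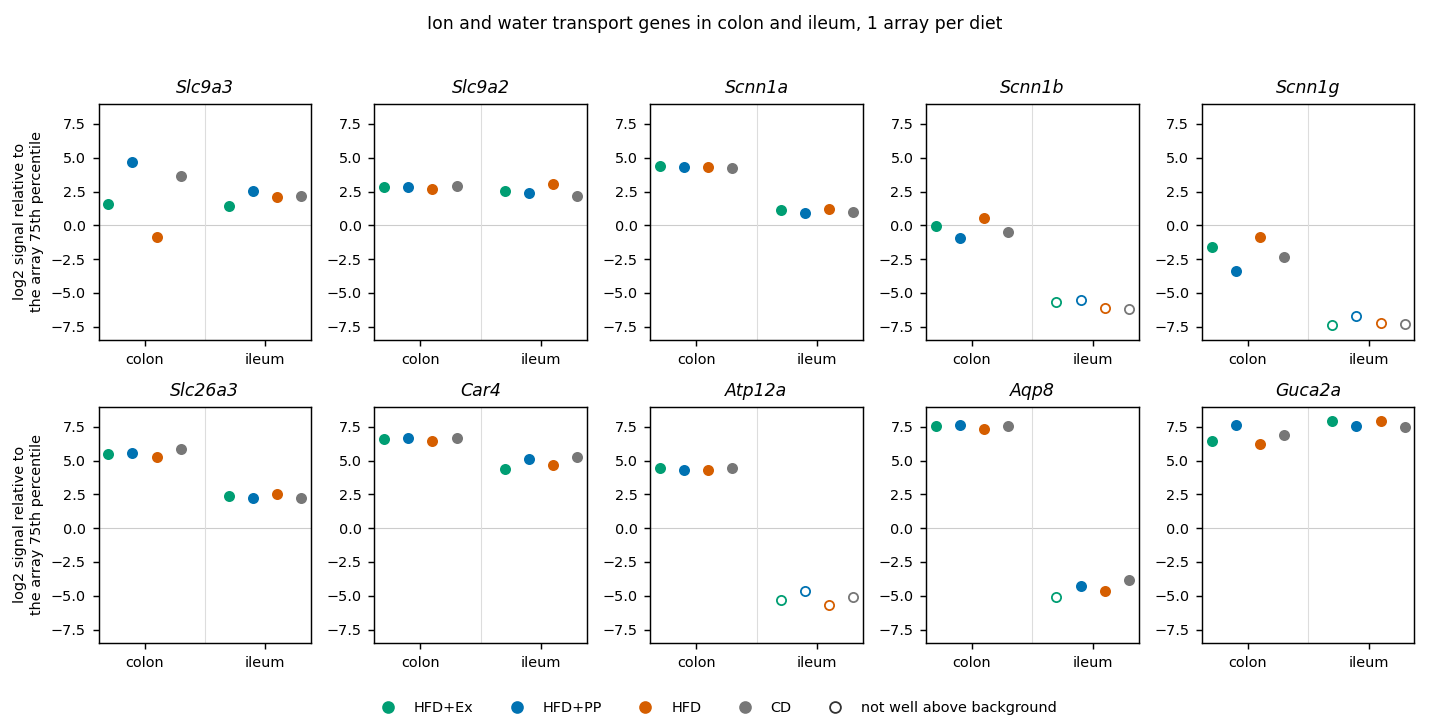
Levels (log2 signal relative to the 75th percentile of the array) in colon and ileum, 1 point per array, in the order HFD+Ex, HFD+PP, HFD and CD within each gut part. Open points were not well above background. In the colon Slc9a3 lies at 4.68 with HFD+PP and at -0.85 with HFD, while Scnn1a stays between 4.25 and 4.37.

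The other transport genes, from lists of pathway members, split in both directions between the gut parts. Of all genes tested, 8.19% were called higher in the colon and 7.60% lower. Of 23 genes of sodium absorption and its control, 4 were higher in the colon and 3 lower. Fxyd4, a regulator of the sodium pump, was at least 2473-fold higher in colon, and Hsd11b2, which keeps glucocorticoids off the aldosterone receptor, was higher by 3.47 log2. Fxyd4 was not well above background on any ileum array and entered the test through the colon arrays. Pdzk1, a scaffold of brush border transporters, differed by -8.42 log2 and the glucose carrier Slc5a1 by -2.81. Of 19 genes of chloride and bicarbonate transport and carbonic anhydrases, 6 were higher and 5 lower, with Best2 at 9.36 log2 and the carbonic anhydrases Car2 at 7.65 and Car1 at 7.15. The bicarbonate exchanger gene Slc26a6 differed by -7.33 and Clca4b by -5.69.

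Of 5 guanylin signalling genes, 1 was higher and 2 were lower in the colon. Guca2b, the uroguanylin gene, averaged 2.35 ± 0.18 in colon and 7.31 ± 0.43 in ileum (SD, n = 4 each), a difference of -4.96 log2. Prkg2, the cyclic GMP-dependent kinase that acts on the brush border, differed by -5.25. Of 5 other aquaporins tested, Aqp4 was higher in the colon (2.59 log2) and 4 were lower, with Aqp3 at -2.87 log2. Of 7 potassium channel genes, Kcne3 was higher (1.34 log2) and Kcnj16 lower (-2.47 log2). The median difference of the lists ran from -1.10 for the aquaporins to 0.31 for the potassium channels, where the median of all genes tested was 0.07.

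Between the diets, the colon values of Slc9a3 varied more than those of any other member. Slc9a3 had levels of 1.61 with HFD+Ex, 4.68 with HFD+PP, -0.85 with HFD and 3.61 with CD, each well above background. The HFD array was the lowest of the 4 and the HFD+PP array the highest. A gene is said to have risen or fallen when 2 arrays differed by at least 1 log2, which is 2-fold, and at least 1 array was well above background. In bulk tissue, fewer cells of a type and less RNA per cell cannot be told apart.

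Slc9a3 fell 22.0-fold in HFD colon against CD colon, a log2 difference of -4.46. It rose 46.2-fold in HFD+PP colon against HFD colon (5.53 log2), the largest rise among 16253 genes well above background on both arrays. It rose 5.48-fold in HFD+Ex colon against HFD colon (2.45 log2), the fifth largest of 16058. HFD+Ex colon lay 8.43-fold below HFD+PP colon (-3.07 log2). The other probe of Slc9a3 was well above background with HFD+PP and CD only, at -2.75 and -3.90, and not with HFD+Ex and HFD, at -6.80 and -7.84. It thus gave a signal on the 2 arrays where the main probe was brightest, and no order between the other two. The contrasts share arrays, so HFD colon enters 3 of these differences.

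The β and γ subunits of ENaC ran the other way over the same arrays. Scnn1g had -1.59, -3.40, -0.90 and -2.32 with HFD+Ex, HFD+PP, HFD and CD, lowest with HFD+PP and highest with HFD. It rose 2.68-fold in HFD against CD (1.42 log2), fell 5.67-fold in HFD+PP against HFD (-2.50 log2), and was 3.50-fold higher in HFD+Ex than in HFD+PP (1.81 log2). With normexp background correction these were 0.98, -1.58 and 1.01 log2, so the rise in HFD against CD was no longer past 2-fold. Scnn1b had -0.03, -0.94, 0.54 and -0.46 on the same arrays, again with HFD+PP lowest and HFD highest. It fell 2.78-fold in HFD+PP against HFD (-1.48 log2), while HFD against CD gave 0.996 log2, just under the threshold, and HFD+Ex against HFD gave -0.57. Scnn1a, the α subunit, stayed between 4.25 and 4.37.

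Guca2a had 6.44, 7.65, 6.21 and 6.89 in the colon with HFD+Ex, HFD+PP, HFD and CD. The HFD+PP array was the highest and the HFD array the lowest, as for Slc9a3. It rose 2.73-fold in HFD+PP against HFD (1.45 log2) and was 2.32-fold lower in HFD+Ex than in HFD+PP (-1.21 log2), and HFD against CD gave -0.68 log2.

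The remaining members differed little between the diets in the colon. Slc26a3 spanned 0.56 log2 over the 4 arrays, Aqp8 0.28, Car4 0.25, Slc9a2 0.22, Atp12a 0.13 and Scnn1a 0.12. Of the 10 genes, 4 spanned 1 log2 or more, where 4.31% of the 15900 genes well above background on all 4 colon arrays did and the median span was 0.27. The proton/potassium pump, the water channel, the apical carbonic anhydrase and the chloride/bicarbonate exchanger thus kept within 2-fold on all diets.

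In counts, HFD against CD colon had 1 of the 10 genes up and 1 down, where 0.450% of all genes measured were up and 1.70% down. HFD+PP against HFD had 2 up and 2 down, with 1.83% and 1.05% of all genes, and HFD+Ex against HFD had 1 up and 0 down, with 1.14% and 0.402%. HFD+Ex against HFD+PP had 1 up and 2 down, with 1.69% and 1.47%. The median difference of the 10 genes was -0.20, 0.22, 0.16 and -0.01 log2 in these contrasts, and that of all genes lay between -0.01 and 0.03.

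**Figure D3:**
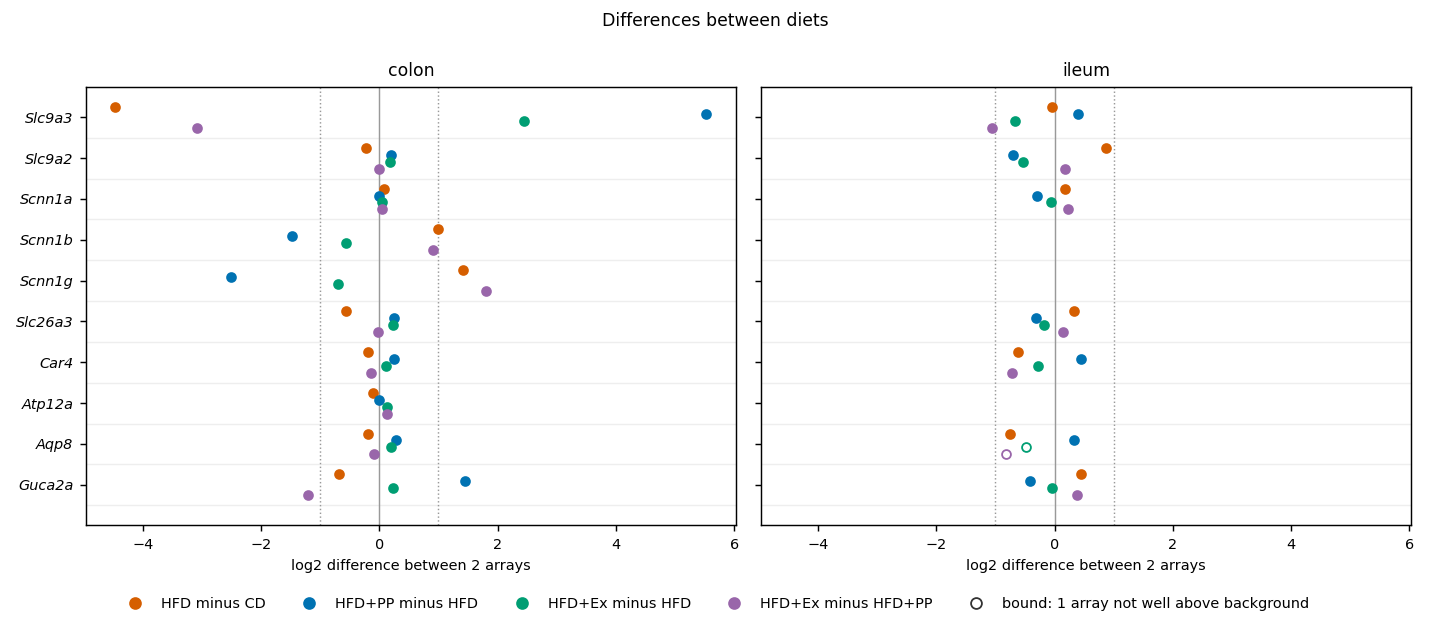
Log2 differences between 2 arrays for each gene in colon and ileum, with dotted lines at 1 log2 either way. Open points are bounds, where 1 array was not well above background, and genes with no point were not well above background on either array. In the colon Slc9a3 spreads from -4.46 to 5.53, and in the ileum 1 value lies past a dotted line.

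Several markers of posterior position, and 1 of the 10 epithelium markers, changed over the same 4 colon arrays. Hoxd13, a gene of posterior position, had 3.72, 2.33, 3.94 and 2.98 with HFD+Ex, HFD+PP, HFD and CD. Of the 7 markers of colon and posterior position, 0 rose and 4 fell in HFD+PP against HFD, with Hoxd10 at -2.27 log2, Hoxd12 at -2.26, Hoxd11 at -2.24 and Hoxd13 at -1.62. In HFD against CD, 2 rose and 0 fell, with Hoxd11 at 1.50 and Hoxd10 at 1.47, and none passed 2-fold in HFD+Ex against HFD. In HFD+Ex against HFD+PP, 4 rose. All 7 were well above background on every colon array, and their summed linear levels were 226, 175, 227 and 179 with HFD+Ex, HFD+PP, HFD and CD. Hoxb13 was the brightest of the 7 and made up most of each sum, so the sums do not describe the Hoxd genes. By their own levels the Hoxd genes were lowest with HFD+PP, as were Scnn1b and Scnn1g. Hoxb13, at 7.69, 7.37, 7.67 and 7.37, stayed within 2-fold.

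Cdx2, a transcription factor of the intestinal epithelium, had 1.93, 3.69, 1.48 and 2.94 in the colon with HFD+Ex, HFD+PP, HFD and CD, the order of arrays seen for Slc9a3. It fell in HFD against CD (-1.46 log2) and rose in HFD+PP against HFD (2.22 log2). Fabp2, a fatty acid binding protein of enterocytes, had 3.47, 5.27, 2.89 and 3.90. It belongs to the 12 small intestine markers, which did not move one way. Of 10 measured in HFD+PP against HFD, 2 rose (Fabp2 by 2.38 log2 and Alpi by 2.37) and 0 fell, and their median was -0.35. Anpep had 2.97, 2.20, 2.81 and 2.67 and Mep1a 6.38, 5.72, 6.30 and 6.00, both lowest with HFD+PP. In HFD against CD, 0 rose and 3 fell of 11 measured. The 10 markers of epithelium in both gut parts had summed linear levels of 1164, 1347, 1207 and 1100, and Cdx2 was the only one past 2-fold in these contrasts. The 9 smooth muscle markers summed to 1203, 798, 1039 and 1026, and none passed 2-fold. Of the 10 pancreas markers, 5 rose and 0 fell in HFD+PP against HFD and again in HFD+Ex against HFD, with summed linear levels of 2.33, 2.22, 1.20 and 1.52 with HFD+Ex, HFD+PP, HFD and CD. Of the 8 fat cell markers, 1 rose (Lep, 2.19 log2) and 2 fell (Cfd, -2.60, and Retn, -1.86) in HFD against CD, and they summed to 50.8, 53.9, 43.0 and 82.5. None of the 7 goblet cell and 7 B cell markers passed 2-fold. The labels do not say which length of the colon was taken, and the part of these markers in the differences of Slc9a3, Scnn1b, Scnn1g and Guca2a was not tested.

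**Figure D4:**
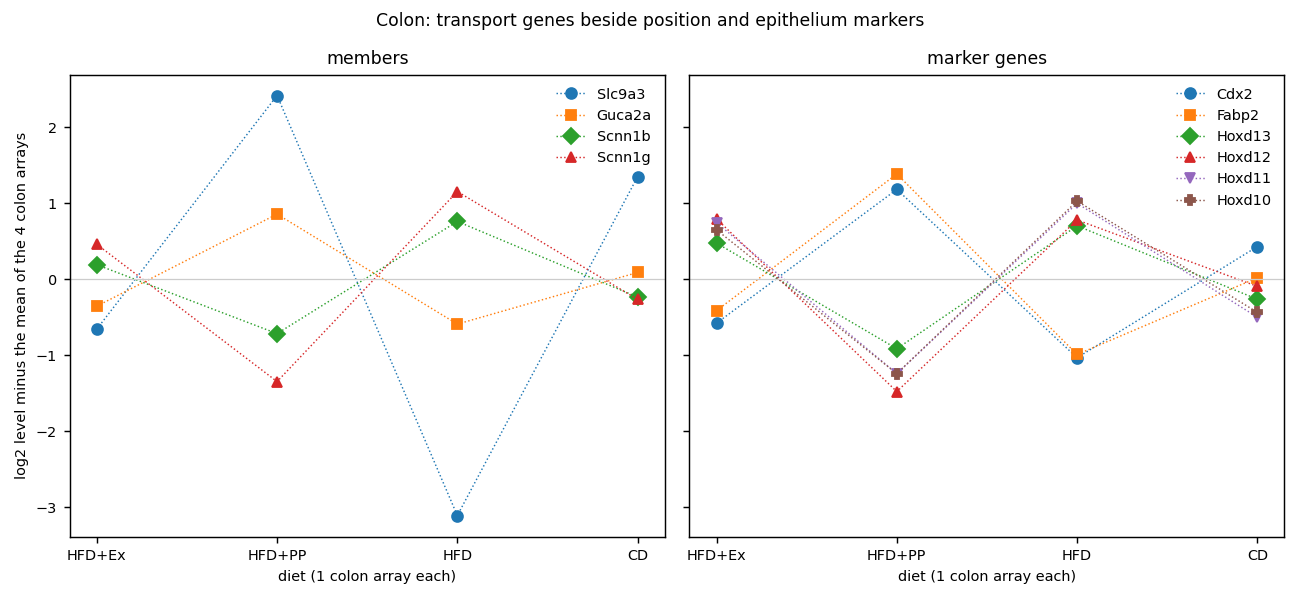
Log2 levels on the 4 colon arrays minus their mean, for the 4 members that spanned 1 log2 or more (left) and for position and epithelium markers (right). Dotted lines join the arrays of 1 gene and stand for no trend. Slc9a3, Guca2a, Cdx2 and Fabp2 are highest with HFD+PP, where Scnn1b, Scnn1g and the 4 Hoxd genes are lowest. The marker genes drawn other than Hoxd13 were chosen after their values were seen, and 9 of the 10 epithelium markers did not pass 2-fold.

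Genes of transport other than the 10 members also passed 2-fold in the colon. In HFD+PP against HFD, 4 of 19 genes of chloride, bicarbonate and carbonic anhydrases rose and 0 fell: Clca4b by 2.00 log2, Clca4a by 1.91, Car12 by 1.45 and Car1 by 1.05. Of all genes measured in that contrast, 1.83% rose and 1.05% fell. Clca4a had 2.09, 3.73, 1.83 and 2.31 with HFD+Ex, HFD+PP, HFD and CD. Of 23 sodium absorption genes, 0 rose and 1 fell, Sgk1 at -1.18 log2, the aldosterone-induced kinase that keeps ENaC at the membrane. Sgk1 had 4.35, 3.71, 4.89 and 4.17, lowest with HFD+PP and highest with HFD, as for Scnn1g. Among 5 aquaporins measured Aqp4, the water channel of the basolateral membrane, rose by 2.13 log2, and among 5 guanylin signalling genes Prkg2 rose by 1.33. None of the 7 potassium channel genes passed 2-fold.

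In HFD against CD colon, Aqp4 alone of these lists changed, with -1.04 log2. In HFD+Ex against HFD it was Clca4b alone, with -1.14. In HFD+Ex against HFD+PP, Fxyd4 rose by 1.04 and Clca4b (-3.15), Aqp4 (-1.93), Clca4a (-1.64), Car12 (-1.44) and Prkg2 (-1.36) fell. Clca4a, Clca4b, Car12 and Prkg2 were all lower in colon than in ileum over the diets, and Aqp4 was higher. Nr3c2, the mineralocorticoid receptor, had -0.31, -0.39, -0.20 and -0.14, and Nedd4l, which removes ENaC from the membrane, had 3.35, 3.28, 3.26 and 3.28.

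In the ileum 1 member passed 2-fold in the contrasts made. Slc9a3, Guca2a and Slc26a3 spanned less there than in the colon, while Aqp8 (1.24 log2), Car4 (0.89), Slc9a2 (0.88) and Scnn1a (0.29) spanned more. The span of Aqp8 lay between CD and HFD+Ex, which were not set against each other, and its HFD+Ex value was not well above background. Of 7 genes measured, 0 changed in HFD against CD, where 1.62% of all genes rose and 2.28% fell, 0 in HFD+PP against HFD (1.96% and 0.939%), and 0 in HFD+Ex against HFD (1.13% and 0.701%). In HFD+Ex against HFD+PP, 0 rose and 1 fell, with 1.31% and 2.01% of all genes. The gene that fell was Slc9a3, with 1.44, 2.50, 2.11 and 2.14 with HFD+Ex, HFD+PP, HFD and CD and a difference of -1.06 log2. It did not pass 2-fold with normexp (-0.96) or with the mean of its probes (-0.46). Thus the low Slc9a3 value of the HFD colon array had no counterpart on the HFD ileum array, and the difference between the gut parts in the response to diet was not tested.

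Slc9a2 gave 0.88 log2 in HFD against CD ileum and was highest with HFD. Guca2a had 7.93, 7.55, 7.96 and 7.52 in the ileum with HFD+Ex, HFD+PP, HFD and CD. Its HFD+PP value was below its HFD value there, where in the colon it was above. Slc26a3 spanned 0.33 log2.

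In the ileum, Car4 was higher on the arrays where some fat cell markers were higher, and Aqp8 and Alb were both highest with CD. Car4, which was also well above background in both fat tissues, was lower with HFD+Ex and HFD (4.38 and 4.65) and higher with HFD+PP and CD (5.10 and 5.26). Adipoq, the adiponectin gene of fat cells, had 0.50, 2.11, 0.41 and 2.43 with HFD+Ex, HFD+PP, HFD and CD, and the 8 fat cell markers summed to 37.3, 52.1, 40.6 and 68.9. Of these 8, 0 rose and 4 fell in HFD against CD, and 5 rose and 0 fell in HFD+PP against HFD. In HFD+Ex against HFD+PP, 0 rose and 5 fell. The markers did not all share the order of Car4. Lep, Lipe and Pnpla2 were lowest with CD, at -4.47, -0.81 and 4.42, where Car4 was highest. Aqp8 was dim in the ileum and highest with CD, at -3.86. Its other probe was not well above background on any ileum array, so it gives no order there. Alb was well above background on the CD ileum array, at 1.35, and not on the other 3, so the likeness to Aqp8 rests on 1 array. The part of fat and liver transcripts in the ileum values of Car4 and Aqp8 was not tested.

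Other transport genes changed in the ileum with HFD. In HFD against CD, 2 of 5 aquaporins measured rose, the glycerol-carrying Aqp3 by 1.62 log2 and Aqp11 by 1.28, and Pdzk1 rose by 1.06. Of all genes measured in that contrast, 1.62% rose and 2.28% fell. Aqp3 had -0.38, -1.67, -0.15 and -1.77 with HFD+Ex, HFD+PP, HFD and CD. It fell by 1.52 in HFD+PP against HFD and rose by 1.29 in HFD+Ex against HFD+PP. Best2 was not well above background with HFD+PP. It was at least 2.45-fold lower in HFD+PP than in HFD, and at least 2.78-fold higher in HFD+Ex than in HFD+PP. Over the same arrays, 5 of 12 small intestine markers rose in HFD against CD and 3 fell in HFD+PP against HFD, and their part was not tested.

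In mesenteric fat, transport genes of the gut were read at low levels on some arrays. Guca2a had -3.09, -0.73, -0.33 and -3.52 with HFD+Ex, HFD+PP, HFD and CD. Slc9a3 had -6.80, not well above background, with HFD+Ex and -2.72, -3.61 and -3.99 with HFD+PP, HFD and CD. Its other probe was not well above background on any mesenteric fat array. Slc26a3 was well above background with HFD+PP only, at -4.83. The 10 epithelium markers summed to 6.57, 15.6, 20.4 and 6.73 on the same arrays, so the HFD+PP and HFD arrays were high for these markers and for Guca2a alike, and their part in these values was not tested. Scnn1b and Scnn1g were not well above background there.

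For each member the genes with the most similar level over the 20 arrays were found among 17310 genes. These correlations are a description over tissues and diets, and the points share libraries. Scnn1g was nearest to Hoxd12 (r = 0.995) and Gjb5 (r = 0.988), and Scnn1b to Hoxd12 (r = 0.952) and Abo (r = 0.951). Scnn1g was well above background on the 4 colon arrays only, and Scnn1b on those and on 1 brown fat array. Both entered this search through the colon, so their r mostly sets colon signals against readings at background. Slc9a3 was nearest to Gcg (r = 0.972), the proglucagon gene, and Tm4sf20 (r = 0.970). Atp12a was nearest to Car1 (r = 0.992), Guca2a to Myo1a (r = 0.996), Slc26a3 to Mptx1 (r = 0.993), Slc9a2 to Lrrc26 (r = 0.993), Scnn1a to Wfdc2 (r = 0.989), Car4 to Aldoart2 (r = 0.969) and Aqp8 to Gne (r = 0.971). When the mean of each gut part was taken off, over the 8 gut arrays and 16333 genes, the nearest gene was Defa26 for Slc9a3 (r = 0.981), Rspo3 for Scnn1g (r = 0.987) and 2700062C07Rik for Scnn1b (r = 0.970). For Scnn1g and Scnn1b the 4 ileum values used there were not well above background. The best r of so many genes over 8 arrays was high for every member, from 0.953 for Slc26a3 to 0.995 for Aqp8. An r of this size therefore does not set a partner apart.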

How the data were processed

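Tissue RNA of 7 mice on a diet was pooled and read on 1 array per tissue and diet, 20 in all. Per the file headers, the authors read the arrays with Agilent Feature Extraction 11.5.1.1, protocol GE1_1105_Oct12, and the deposited processed signal is a linear intensity for each spot with the array's own background taken off and no scaling between arrays. The intensity in the authors' deposited value table equals that signal times 1 factor per array (log2 factors from 0.916 to 1.65). It is linear and not centred, the rule behind the factor is not given in the sources used here, and it was used as an alternative.

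Control spots and spots flagged as outliers (117 to 206 per array) were left out, and spots of 1 probe were averaged. Of 55681 probes, 28026 were named through their accession by a RefSeq gene table (GRCm38.p6). A gene was represented by its brightest probe. Levels are log2 signals minus the 75th percentile of the array. Where the dimmer array was not well above background, a difference was taken against the higher of the probe's own signal and the lowest signal well above background there, and is a bound. Colon was set against ileum with limma 3.58.1 (R 4.3.3), on genes that 4 or more of the 8 gut arrays read well above background, with diet as a block and Benjamini-Hochberg adjustment over all genes tested, after a test on simulated data. The 4 diets serve as 4 pairs, so the error holds any difference between diets in the gap between gut parts.

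The members, the gene lists and the tests were chosen with earlier results of these data known. The text names all 10 members, up to 4 genes per pathway list and contrast with the largest changes, up to 4 with the largest difference between colon and ileum, chosen marker genes, and up to 2 genes nearest to a member over the arrays. Alb, Cdx2, Fabp2, Anpep, Mep1a, Alpi, Lep, Cfd, Retn, Sgk1, Nr3c2, Nedd4l and Guca2b, the Hoxd genes other than Hoxd13, and levels on single arrays of other named genes were chosen after their values were seen. The values of 1 chosen marker gene are not reported here. The normexp alternative used the median spot signal, because the files hold no mean spot signal.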

Additional observations from a re-analysis of the deposited data

How the results depend on the processing

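The colon counts of members past 2-fold stayed at 4 for HFD+PP against HFD, at 1 for HFD+Ex against HFD, and at 3 between HFD+Ex and HFD+PP under the 7 alternatives run. For HFD against CD the count of 2 became 1 with normexp, where Scnn1g gave 0.98 log2, and 3 with quantile scaling, where Scnn1b gave 1.03. Slc9a3 ranged from -4.65 to -4.17 log2 in HFD against CD colon, from 5.29 to 5.67 in HFD+PP against HFD, from 1.75 to 2.52 in HFD+Ex against HFD and from -3.56 to -3.04 in HFD+Ex against HFD+PP. In the ileum the count for HFD+PP against HFD was 1 with no filter on dim probes and 0 otherwise. For HFD+Ex against HFD+PP the count of 1 became 0 with normexp and 0 with the mean of all probes of a gene. For colon against ileum, 7 members were called and 3 when all 8 arrays had to be well above background, which left 6 genes tested. Leaving out 1 diet gave 7 to 8, with Guca2a the added gene when HFD+PP was left out. Guca2a also reached limma adjusted p = 0.0329 with normexp, 0.0467 with the filter on all 8 arrays and 0.0261 with no diet block, and Slc9a2 0.0258 without HFD, each under 1 log2. Apart from these, the causes of which were not tested, no member changed its call in colon against ileum. The block by slide could not be fitted, because no slide held both gut parts. Over all genes, normexp lowered the counts past 2-fold in colon to 118, 141, 21 and 139 (368, 489, 260 and 532 in the settings reported) for the contrasts in the order of the report. In ileum it lowered them to 234, 135, 78 and 174 (643, 463, 298 and 538), and in colon against ileum to 1690 (2588). With no filter the counts were 1258, 1375, 1006 and 1386 in colon and 1771, 1202, 1177 and 1341 in ileum. With both arrays above background they were 217, 365, 102 and 342 in colon and 420, 254, 150 and 295 in ileum. In HFD against CD ileum, 267 genes were up and 376 down, against 348 and 272 with quantile scaling and 205 and 485 with the authors' scaling, which shifted the median of all genes to -0.10 log2. Dim probes limit Scnn1b, Scnn1g and Atp12a in the ileum to bounds.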
